A study of Mus musculus with 12 samples.

Results

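The genes described here are 10 members of the Toll-like receptor system, chosen by name with earlier results of these data known. They are the receptors Tlr1, Tlr2, Tlr3, Tlr4, Tlr6, Tlr7, Tlr9 and Tlr13, the co-receptor Cd14 and the adaptor Myd88. They are 10 of the 24340 genes in the table, and all of them were among the 18509 genes above 0 in at least 1 library. The series measured retinal RNA of 6 p16-3MR mice aged 12 to 16 weeks, in which the IOP (intraocular pressure) of 1 eye was held at 85 to 90 mm Hg for 60 minutes and the fellow eye was left as the non-IOP control. Ganciclovir (GCV, 25 mg/kg a day for 3 days) was given to mice 1, 2 and 5, and PBS to mice 3, 4 and 6. The 4 groups of 3 libraries are therefore control, IOP, control with GCV and IOP with GCV.

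Every animal, the controls included, carried the p16-3MR transgene, which places a luciferase, a red fluorescent protein and a viral thymidine kinase under the regulatory region of p16Ink4a. The kinase turns GCV into a toxic product, so GCV is meant to kill cells that express p16Ink4a. No library of a mouse without the transgene was part of this comparison, and an effect of GCV itself cannot be told apart from one of the loss of those cells. Values were read as FPKM, fragments scaled to transcript length and library size, though their unit is not stated. On that reading levels may be compared between genes.

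Toll-like receptors are membrane proteins that recognise microbial molecules and some molecules released by damaged cells. TLR1, TLR2, TLR4 and TLR6 act at the cell surface, while TLR3, TLR7, TLR9 and TLR13 sit in endosomes and bind nucleic acids. In the retina they are best known from microglia, the resident macrophages, and most of them signal through MyD88 to NF-kB, whereas TLR3 uses the adaptor TRIF.

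Tlr1 and Tlr6 are neighbouring genes on mouse chromosome 5 (GRCm38.p6, chr5:64924680-64933600 and chr5:64953092-64970942), and part of their coding sequence is identical, which matters because reads were 50 bases long. Of the 50-base words of the longest Tlr1 transcript in GENCODE, 15.3% also occur in the longest Tlr6 transcript, and 12.5% of the Tlr6 words occur in Tlr1. The longest identical stretch is 229 bases. It covers coding bases 1468 to 1696 of the 2385 of Tlr1 (chr5:64925537-64925765, minus strand) and coding bases 1507 to 1735 of the 2418 of Tlr6 (chr5:64953828-64954056, minus strand). It is shown because a read that falls inside it matches both genes and can be told apart only by a mate outside it, and how such reads were counted is not given in the sources used here. It reads 5′ to 3′ as follows.
Tlr1 and Tlr6: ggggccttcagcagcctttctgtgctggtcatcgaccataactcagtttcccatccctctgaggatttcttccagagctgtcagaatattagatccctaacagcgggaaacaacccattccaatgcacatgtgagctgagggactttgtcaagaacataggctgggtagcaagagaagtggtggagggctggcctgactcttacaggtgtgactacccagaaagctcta
The other 8 members shared no 50-base word with a transcript of another gene.

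Promoter windows of 250 bases before a RefSeq start (GRCm38.p6) were found for 7 of the 10 members, 9 windows in all, and were searched on both strands with motifs chosen after these windows had been seen. The windows of Myd88 and Tlr9 are shown because both genes are on chromosome 9, both were higher in IOP retinas, and their windows lie almost wholly outside annotated exons. Capitals mark the match to GAAANNGAA, a core of interferon-response elements, in Myd88 (chr9:119340042-119340268, minus strand, 227 bases, the 23 exonic bases next to the start left out) and to TGANTCA, the AP-1 motif, in Tlr9 (chr9:106222348-106222597, plus strand).
Myd88: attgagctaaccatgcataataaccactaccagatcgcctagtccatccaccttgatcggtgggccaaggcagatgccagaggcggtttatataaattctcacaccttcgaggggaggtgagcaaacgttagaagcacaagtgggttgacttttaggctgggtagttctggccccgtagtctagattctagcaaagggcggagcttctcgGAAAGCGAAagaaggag
Tlr9: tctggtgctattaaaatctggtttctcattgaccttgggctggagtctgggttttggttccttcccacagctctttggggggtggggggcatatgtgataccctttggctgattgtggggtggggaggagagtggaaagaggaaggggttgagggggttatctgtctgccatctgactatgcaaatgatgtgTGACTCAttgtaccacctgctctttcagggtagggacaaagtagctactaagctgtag
The Myd88 match lay 40 to 32 bases before the start and the Tlr9 match 58 to 52 bases before it. GAAANNGAA was present in 2 of the 9 member windows, those of Myd88 and Tlr6, and in 7.13% of 32851 mouse promoters of the same length. TGANTCA was present in 1 member window and in 6.75% of all promoters. The NF-kB consensus was present in windows of Tlr2, where overlapping matches spanned 173 to 163 bases before the start, and of Tlr3, against 7.25% of all promoters. The PU.1-type motif GAGGAAGT was present in a window of Tlr1, 23 to 16 bases before the start, against 2.44% of all promoters. Of the 250 bases of these windows, 216 in Tlr2, 250 in Tlr3 and in Tlr6 and 42 in Tlr1 lie inside an annotated exon or the member's own gene. A match of letters shows neither binding nor use of the site, and these windows were not measured in this series.

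In control retinas the members were expressed at low levels, apart from the adaptor. Without GCV, Myd88 averaged 4.54 ± 1.04 FPKM (SD, n = 3), Tlr3 1.46 ± 0.312 and Cd14 1.08 ± 0.553. The other 7 receptors averaged 0.0333 FPKM (Tlr6) to 0.317 FPKM (Tlr13). Myd88 was above 49.4% of the genes with a value above 0 in the series, and Tlr6 was above 9.95% of them. The controls with GCV had the same 3 genes on top, with 3.95 ± 0.494, 1.63 ± 0.610 and 1.19 ± 0.501 FPKM. Few fragments stand behind these values: depth, estimated from the steps of low values, was 3980000 fragments in the IOP retina of mouse 6 and up to 9080000 in the other libraries. Of the 120 values of the 10 members, 48 rested on fewer than 10 estimated fragments, 42 of them in control retinas.

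After IOP elevation 5 of the 8 receptors and the adaptor rose. Averaged over mice with and without GCV, 6 of the 10 members were higher in IOP‐treated retinas at an adjusted p under 0.05 in limma, against 6.76% of the 18509 genes tested, and no member was lower. These were Myd88, Tlr1, Tlr2, Tlr7, Tlr9 and Tlr13. With the mouse as a block, 4 of the 10 passed (Myd88, Tlr1, Tlr7 and Tlr13), and the genes called in either direction went from 12.2% to 7.3%. The median member difference was 1.1 on the log2(FPKM + 1) scale, and the median over all genes was 0.01. Within single mice, 9 of 10 members were higher in the IOP eye in all 6 animals, Cd14 being the exception, against 10.7% of all genes. This count takes in Tlr6 in mice 2 and 4, where the IOP eye held 1 estimated fragment, and Myd88 in mouse 6, at a log2 change of 0.03. For 7 members the lowest of 6 IOP retinas lay above the highest of 6 control retinas, against 5.47% of all genes. In bulk retina a change in the number of cells that express a gene and a change in its RNA per cell cannot be told apart.

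**Figure D1:**
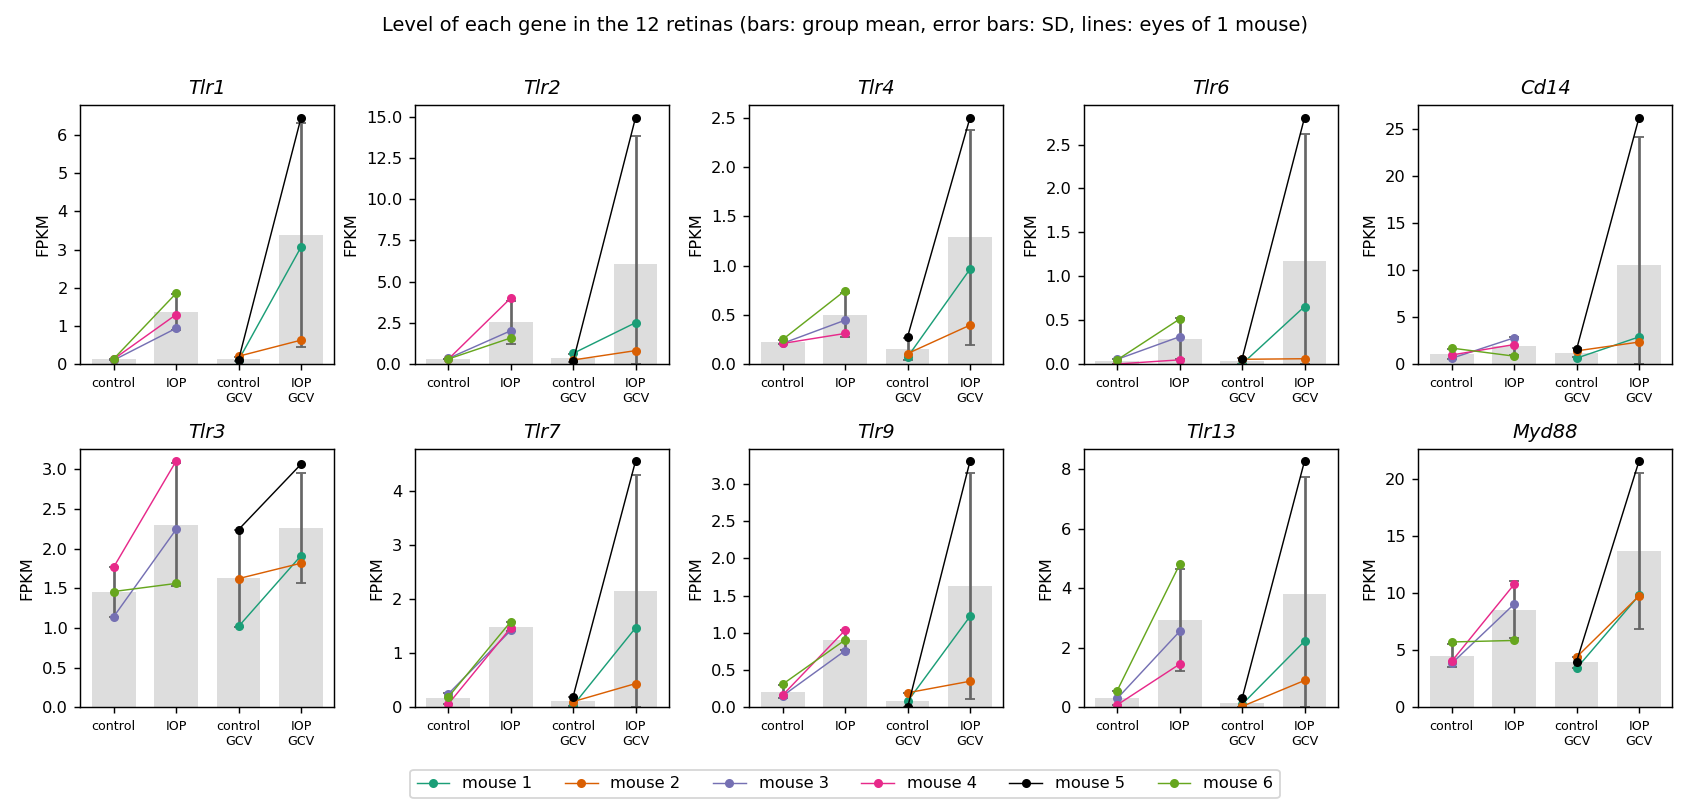
Level of each of the 10 genes in FPKM (y axis, from 0, a separate scale for each gene) in the 4 groups (x axis), with a point for every retina, lines joining the 2 eyes of a mouse, bars for group means and error bars for the SD (n = 3). Most lines rise from control to IOP, and the IOP retina of mouse 5 is the highest library for 9 of the 10 genes, all but Tlr3.

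Of the surface receptors, TLR2 binds bacterial lipoproteins as a dimer with TLR1 or TLR6. Tlr2 (chr3:83836272-83841824) measured 0.335, 0.286 and 0.298 FPKM in the control retinas of mice 3, 4 and 6 and 2.01, 3.99 and 1.58 FPKM in their IOP retinas. With GCV, mice 1, 2 and 5 had 0.641, 0.241 and 0.162 FPKM in the control eye and 2.51, 0.810 and 15.0 FPKM in the IOP eye. The 6 IOP retinas were all above the 6 controls, and the IOP retina of mouse 5 stood far above the other 5. The averaged difference was 1.59 on the log2(FPKM + 1) scale (SE 0.44, adjusted p = 0.0436, limma). It did not pass with the mouse as a block (adjusted p = 0.0667).

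Tlr1 was among the lowest of the receptors in control retinas. Its levels there were 0.101, 0.129 and 0.135 FPKM without GCV and 0.104, 0.203 and 0.114 FPKM with GCV, which is 2 to 4 estimated fragments in a library. In IOP retinas it measured 0.937, 1.30 and 1.85 FPKM without GCV and 3.07, 0.625 and 6.46 FPKM with GCV. No IOP value overlapped a control value, and the ratio of mean FPKM was 11.2 without GCV (67 against 8 estimated fragments) and 24.1 with GCV (220 against 8). Without the IOP retina of mouse 5 the latter was 13.2. Averaged over both treatments, Tlr1 differed by 1.37 (SE 0.30, adjusted p = 0.0194, limma).

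Tlr6 was close to the limit of detection. Its control retinas had 0 to 0.0598 FPKM, 2 estimated fragments over the 3 libraries of either control group. IOP retinas had 0.311, 0.0469 and 0.512 FPKM without GCV and 0.655, 0.0597 and 2.81 FPKM with GCV. Those of mice 4 and 2 held 1 estimated fragment each, as many as several controls, and no ratio is given against so few fragments. For Tlr6 the averaged difference was 0.58 (SE 0.25, adjusted p = 0.148, limma), and no call was made. It was 0.33 without the IOP retina of mouse 5 (adjusted p = 0.139), and without that of mouse 2 it was 0.79 and passed (adjusted p = 0.0327).

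TLR4 recognises bacterial lipopolysaccharide, with CD14 handing over the ligand and MD-2 (Ly96) holding it. Tlr4 (chr4:66827551-66846581) measured 0.210, 0.209 and 0.249 FPKM in controls and 0.445, 0.310 and 0.746 FPKM in IOP retinas without GCV. With GCV the values were 0.0721, 0.106 and 0.277 FPKM in controls and 0.965, 0.395 and 2.50 FPKM in IOP retinas. The IOP and control values did not overlap, but the averaged difference of 0.59 (SE 0.19) missed the threshold in limma (adjusted p = 0.0641). On this scale a gene below 1 FPKM gives a small difference, and with a pseudocount of 0.1 FPKM Tlr4 passed, as it did without the IOP retina of mouse 4 or of mouse 2.

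Cd14 was the least even member between mice. Control retinas had 0.603, 0.954 and 1.69 FPKM without GCV and 0.619, 1.39 and 1.56 FPKM with GCV. The IOP retinas had 2.78, 2.06 and 0.831 FPKM without GCV and 2.87, 2.33 and 26.2 FPKM with GCV. Cd14 was higher in the IOP eye of 5 mice and lower in that of mouse 6, by a log2 change of -0.55, where the IOP value rested on 5 estimated fragments. In mouse 5 it was 16.8 times the fellow eye. The averaged difference was 1.08 (SE 0.48, 95% confidence interval 0.02 to 2.14, adjusted p = 0.158, limma). Leaving out the IOP retina of mouse 5 took the difference with GCV from 1.72 to 0.74 and the averaged one to 0.59.

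Of the endosomal receptors, TLR7 binds single-stranded RNA, TLR9 binds unmethylated CpG DNA and TLR13, which mice have and humans lack, binds bacterial ribosomal RNA. Tlr13 (chrX:106143275-106160493) measured 0.301, 0.0856 and 0.566 FPKM in controls and 2.55, 1.45 and 4.80 FPKM in IOP retinas without GCV. With GCV it measured 0.103, 0.0337 and 0.303 FPKM in controls and 2.23, 0.906 and 8.28 FPKM in IOP retinas. The lowest IOP value was above the highest control value, with a ratio of mean FPKM of 9.26 without GCV (200 against 31 estimated fragments) and 26.0 with GCV (373 against 12). The IOP retina of mouse 5 held 279 of these fragments, and without it the ratio with GCV was 10.7 and the fitted difference with GCV 1.12 in place of 1.75. The averaged difference of 1.63 (SE 0.35, adjusted p = 0.0193, limma) was the largest of the 10.

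Tlr7 (chrX:167303380-167330574) had the tightest IOP group of all members without GCV. The 3 IOP retinas measured 1.42, 1.47 and 1.58 FPKM, and their fellow eyes 0.248, 0.0605 and 0.189 FPKM. With GCV the IOP retinas spread from 1.47 and 0.441 to 4.55 FPKM, over controls of 0.0365, 0.107 and 0.201 FPKM. The groups stayed apart, with a ratio of mean FPKM of 8.99 without GCV (110 against 15 estimated fragments) and 18.8 with GCV (200 against 9). Without the IOP retina of mouse 5 the ratio with GCV was 8.32, and the fitted difference with GCV was 0.76 in place of 1.28. Averaged, Tlr7 differed by 1.19 (SE 0.26, adjusted p = 0.0198, limma).

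Tlr9 (chr9:106222598-106226876) measured 0.156, 0.166 and 0.312 FPKM in controls and 0.763, 1.04 and 0.906 FPKM in IOP retinas without GCV. With GCV the controls had 0.0802, 0.196 and 0 FPKM and the IOP retinas 1.22, 0.352 and 3.31 FPKM. The IOP value of mouse 2, at 8 estimated fragments, was the nearest to the controls and still above all 6. The averaged difference was 0.88 (SE 0.22, adjusted p = 0.0343, limma), which did not pass with the mouse as a block (adjusted p = 0.0652).

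Tlr3 (chr8:45395665-45411075), a receptor for double-stranded RNA, moved least in the averaged comparison. Without GCV its difference was 0.41, above those of Tlr4 (0.29) and Tlr6 (0.30). Its controls measured 1.14, 1.77 and 1.46 FPKM without GCV and 1.02, 1.62 and 2.24 FPKM with GCV, and its IOP retinas 2.24, 3.10 and 1.56 FPKM and 1.91, 1.82 and 3.06 FPKM. It was higher in the IOP eye of each mouse by 1.07 to 1.96 times, but the groups overlapped. Its averaged difference was 0.36 (SE 0.17, 95% confidence interval -0.01 to 0.74, adjusted p = 0.180, limma). Below Myd88 alone in control retinas, Tlr3 was also below Tlr13 and Tlr2 in mean level in IOP retinas without GCV.

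Myd88 (chr9:119335934-119340018), the adaptor that TLRs other than TLR3 share, was the highest member in every group. Controls measured 3.85, 4.04 and 5.73 FPKM without GCV and 3.43, 4.41 and 4.02 FPKM with GCV. IOP retinas measured 9.05, 10.8 and 5.86 FPKM without GCV and 9.81, 9.77 and 21.6 FPKM with GCV. In mouse 6 the eyes were 1.02 times apart, and in the other 5 mice the IOP eye was 2.22 to 5.37 times the control eye. The averaged difference was 1.13 (SE 0.21, adjusted p = 0.0113, limma), and it passed in each of 12 fits that left out 1 library.

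**Figure D2:**
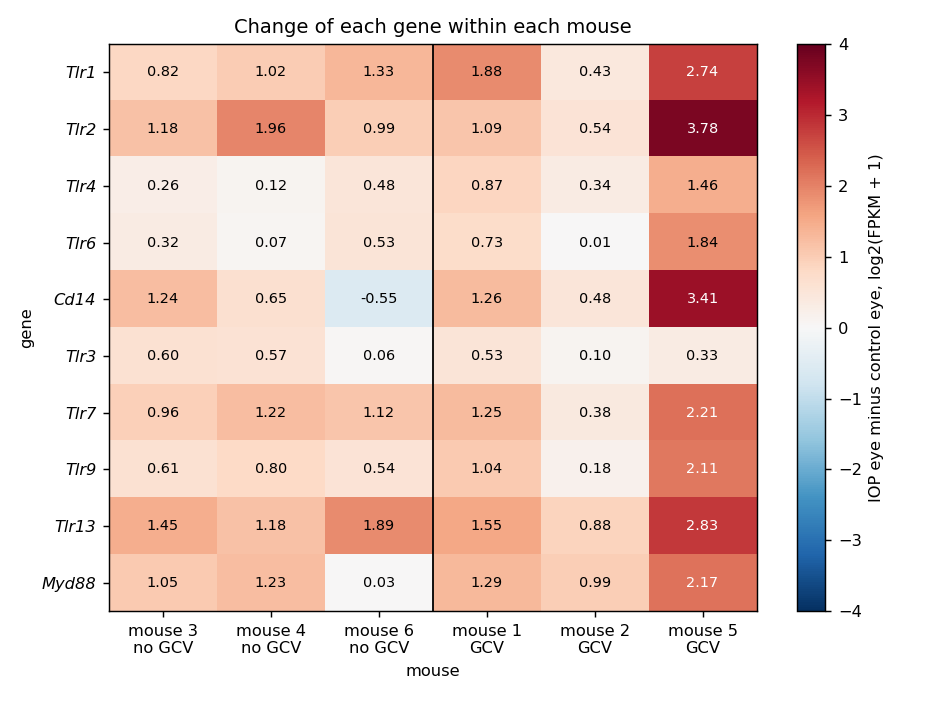
Change of each gene (rows) within each mouse (columns) as IOP eye minus control eye in log2(FPKM + 1), red for higher and blue for lower in the IOP eye, with mice without GCV left of the line. The column of mouse 5 holds the largest change of 9 genes, the column of mouse 2 is pale, and Cd14 in mouse 6 is the only value below 0.

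The size of the response varied between animals of 1 treatment. The median change of the 10 members was 0.89, 0.91 and 0.53 on the log2(FPKM + 1) scale in mice 3, 4 and 6, and 1.17, 0.41 and 2.19 in mice 1, 2 and 5. Mice 2 and 5, which shared the GCV treatment, thus had the smallest and the largest median. Without both eyes of mouse 5, a choice made after seeing the data, the same 6 members passed in the averaged comparison, with adjusted p of 0.00789 (Tlr7) to 0.0427 (Tlr2), while the genes called in either direction went from 2258 (12.2%) to 777 (4.23%). Without both eyes of mouse 6, whose IOP library was the shallowest, Myd88 alone passed, and the other 5 had adjusted p of 0.0627 (Tlr13) to 0.105 (Tlr2), with 948 genes (5.14%) called.

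Single libraries ended some of the calls. Leaving out the control retina of mouse 4 ended the averaged calls of Tlr1 (adjusted p = 0.0510), Tlr7 (0.0553) and Tlr13 (0.0551), and leaving out the GCV control of mouse 2 also ended that of Tlr13 (0.0514). Tlr2 passed in 3 of the 12 fits that left out a library, those without the IOP retina of mouse 4, 2 or 5, and its adjusted p rose to 0.0982 at most. Tlr9 passed in 4 of 12, those without the IOP retina of mouse 4, 1, 2 or 5, with at most 0.0815. All 12 such fits kept every member's averaged difference above 0, the lowest being 0.28 for Tlr3. The share of all genes called in either direction ran over these fits from 4.51% without the control retina of mouse 4, where Myd88 alone passed, to 24.5% without the IOP retina of mouse 4, where 7 members passed.

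Taken alone, the 3 mice without GCV gave no call for a member in limma, where 1.42% of the genes tested were called higher. All 10 differences were above 0, from 0.29 (Tlr4) to 1.51 (Tlr13). When the IOP retina of mouse 6 was left out, that of Tlr4 was 0.17, that of Tlr6 0.18 in place of 0.30 and that of Cd14 0.74 in place of 0.44, while without the IOP retina of mouse 3 that of Cd14 was 0.22. In the fit of all libraries 4 members and 18.9% of all genes had an unadjusted p under 0.05, and the members' adjusted p ran from 0.178 to 0.738. For 7 members the 3 IOP values lay above the 3 control values, against 11.7% of all genes. When the fit used these 2 groups only, Tlr1, Tlr7 and Tlr9 passed (adjusted p = 0.0363, 0.0164 and 0.0440), with 1.8% of genes called in either direction against 1.65% in the fit of all 4 groups. Without both eyes of mouse 5 Tlr7 and Tlr13 passed (0.0173 and 0.0482), with 3.18% of genes called. No member passed without the IOP retina of mouse 4, where the genes called went from 1.65% to 13.5%.

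In the 3 mice with GCV, Myd88 was called higher in IOP retinas, at 1.48 (SE 0.30, adjusted p = 0.0378, limma), and 1.65% of the genes tested were called higher. It did not pass with the mouse as a block (adjusted p = 0.107). The call was also lost without the IOP retina of mouse 5 (0.0699) and without the GCV control retina of mouse 1, 2 or 5 (0.142, 0.116 and 0.126). The other members had differences of 0.32 (Tlr3) to 1.81 (Tlr2). Without the IOP retina of mouse 5 these were 0.15 and 0.92, and without the GCV control retina of mouse 1 that of Tlr3 was 0.14. An unadjusted p under 0.05 was reached by 9 of the 10 members and by 19.2% of all genes. The 3 IOP values lay above the 3 control values for 8 members, Cd14 included, against 14.5% of all genes. Without the IOP retina of mouse 2, where the members rose least, 8 members passed, and the calls over all genes in either direction went from 334 (1.8%) to 716 (3.88%).

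**Figure D3:**
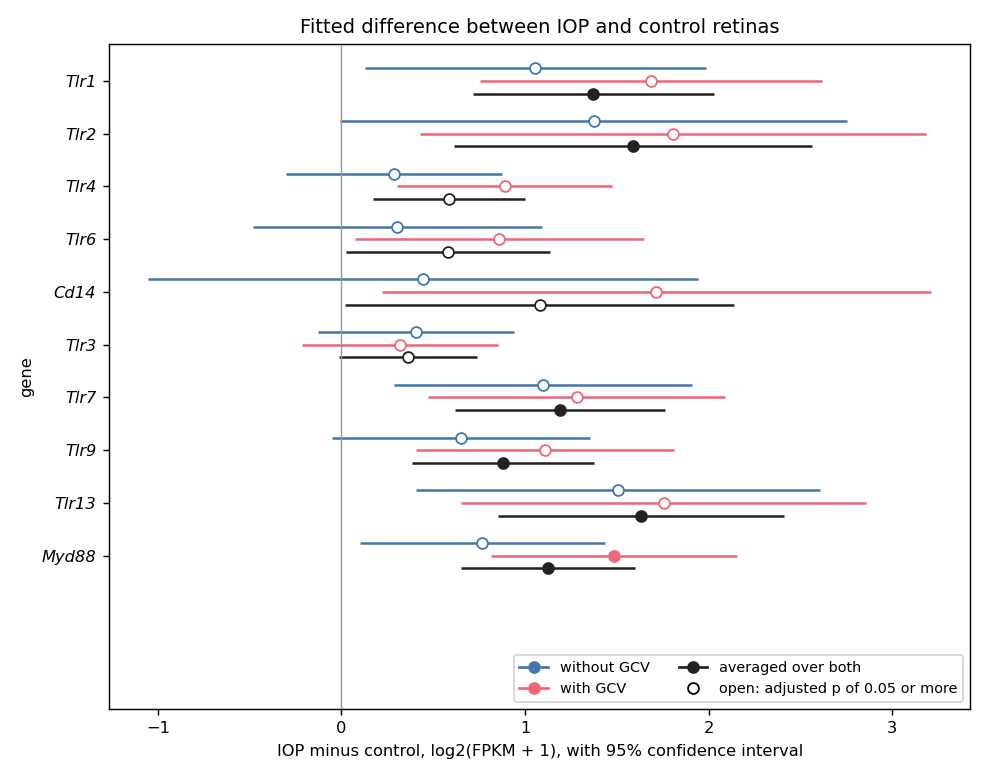
Fitted difference between IOP and control retinas for each gene on the log2(FPKM + 1) scale (x axis), without GCV, with GCV and averaged over both, with the 95% confidence interval. Filled points have an adjusted p under 0.05 in limma: 6 genes in the averaged comparison, Myd88 with GCV and none without GCV.

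Whether GCV changed the response was tested as the difference between the IOP effects with and without it. In limma no member passed, nor did any of the 18509 genes (0% called, 358 with an unadjusted p under 0.05). The difference was above 0 for 9 members, Tlr3 at -0.09 being the exception, and adjusted p ran from 0.997 to 0.999. The widest interval was that of Cd14, at 1.27 with a 95% confidence interval of -0.85 to 3.39. For Myd88 the difference was 0.72 (-0.23 to 1.66), and for Tlr1 0.63 (-0.69 to 1.94). Sizes and directions depended on 1 library: without the IOP retina of mouse 5 the difference was above 0 for 6 members and below 0 for Tlr2 (-0.46), Tlr13 (-0.39), Tlr7 (-0.34) and Tlr3 (-0.26), while Cd14 had 0.30, Myd88 0.36 and Tlr1 0.12. These intervals are wide, and they do not show that the effects were equal.

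GCV against no GCV within IOP retinas gave no member call in limma (0% of all genes called, 774 with an unadjusted p under 0.05). The members differed by -0.01 (Tlr3) to 1.35 (Cd14), with adjusted p of 0.819 to 1, and the ranges of the IOP groups overlapped for each of the 10. Without the IOP retina of mouse 5 they differed by -0.58 (Tlr13) to 0.38 (Cd14), with 5 of the 10 above 0. Within control retinas no member was called either (0% of all genes called, 295 with an unadjusted p under 0.05). Their differences were -0.19 (Tlr13) to 0.08 (Cd14), every adjusted p was 1, and the control groups overlapped for each of the 10. The IOP comparisons and the GCV comparisons share libraries, so they do not count as separate evidence.

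The other Toll-like receptor genes of the mouse were low. Tlr8, a paralog of Tlr7, averaged 0.0271 ± 0.0236 FPKM in controls and 0.870 ± 0.258 FPKM in IOP retinas without GCV. With GCV it was listed at 0 in the 3 controls and averaged 1.45 ± 1.47 FPKM in IOP retinas. Its averaged difference was 0.98 (SE 0.24, adjusted p = 0.0308, limma), higher in 6 of 6 mice. Tlr5, Tlr11 and Tlr12 stayed below 0.23 FPKM on average in each group and did not pass (adjusted p = 0.158, 0.10 and 0.897).

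Some genes listed as partners of the receptors rose as well. Of 11 genes for co-receptors, ligand delivery and trafficking, 6 were called higher in the averaged comparison and none lower (4 without GCV, 5 with GCV), with a list median of 1.55. Lbp, Cd36, Cnpy3 (-0.12), Hsp90b1 and Slc15a4 were not called. The list counts Trem2 and Tyrobp, which are not themselves co-receptors of Toll-like receptors. Those with the largest difference were Tyrobp (3.17, SE 0.37), the signalling partner of Trem2, Trem2 (2.60, SE 0.35), a lipid receptor of microglia, and Unc93b1 (2.53, SE 0.33), the chaperone that carries the endosomal receptors out of the endoplasmic reticulum. Unc93b1 averaged 2.25 ± 0.393 FPKM in controls and 13.1 ± 2.64 FPKM in IOP retinas without GCV, and 1.59 ± 0.237 and 23.8 ± 17.8 FPKM with GCV. Its adjusted p was 0.00177 in the averaged comparison (limma).

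Of 21 adaptors and signal kinases, 7 were higher and none was lower in the averaged comparison (1 without GCV, 2 with GCV), with a list median of 0.23. Irf7 rose by 2.38 (SE 0.26, adjusted p = 0.000833, limma), Pik3ap1 by 1.73 (SE 0.35, 0.0144) and Irf5 by 1.61 (SE 0.24, 0.0036). Irf5 and Irf7 are the transcription factors that act below MyD88 in cytokine and interferon induction. The remaining 4 called genes were Ticam1, which encodes TRIF, Ticam2, Tirap and Irak4.

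The 12 negative regulators went both ways. Irak3, an inactive IRAK kinase, rose by 1.67 (SE 0.48, adjusted p = 0.0478, limma) and Nfkbia, the inhibitor of NF-kB, by 0.87 (SE 0.25, 0.0473). Both passed narrowly, and in IOP retinas with GCV they averaged 7.83 ± 10.4 and 33.6 ± 22.3 FPKM. Tnfaip3, the ubiquitin-editing enzyme A20, fell by 0.90 (SE 0.15, adjusted p = 0.00609, limma) and was lower in the IOP eye of all 6 mice. It averaged 88.1 ± 2.69 FPKM in controls and 41.1 ± 4.60 FPKM in IOP retinas without GCV, and 82.1 ± 6.47 and 52.0 ± 17.3 FPKM with GCV. The list median was -0.01, and Tnfaip3 was the one gene of the list called in the mice without GCV. None was called with GCV.

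Of 10 candidate endogenous ligands, 5 were called higher in the averaged comparison (1 without GCV, 2 with GCV), with a list median of 1.00. They include Saa3 (5.80, SE 1.01, adjusted p = 0.00734, limma), an acute-phase protein, S100a8 (3.63, SE 0.73, 0.0142), a calcium-binding protein of neutrophils and monocytes, and Lgals3 (3.30, SE 0.45, 0.00216), a galectin. In IOP retinas with GCV, Saa3 averaged 1474 ± 2339 FPKM and S100a8 106 ± 139 FPKM. Hmgb1 (-0.11), Hspd1 (0.05), Tnc (-0.32), Bgn (0.64) and Hsp90aa1 (0.01) were not called. Of 18 target genes of TLR signalling, 8 were higher and none lower (4 without GCV, 4 with GCV), with a list median of 1.55. Not called were Tnf, Il6, Il12b, Ifnb1, Cxcl1, Cxcl2, Ptgs2, Irg1, Nfkbiz and Il1rn (adjusted p = 0.0572 to 0.513, limma). Of these, Il6, Il12b and Ifnb1 averaged at most 0.13 FPKM in any group. Bcl3, an NF-kB cofactor, rose by 4.04 (SE 0.36, adjusted p = 0.000332, limma), and the chemokines Ccl5 and Ccl2 rose by 3.46 (SE 0.42, 0.0012) and 3.00 (SE 0.32, 0.000712). The background for all these averaged counts is the 6.76% given above, and the difference between the IOP effects with and without GCV gave no call in any of these lists. Calls of genes outside the 10 members are from the main fit, without the mouse as a block. The alternatives were summarised for the members only.

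Markers of several cell types moved with the members. The summed level of 12 markers of microglia and macrophages was 87.1 to 141 FPKM in controls, 421 to 724 FPKM in IOP retinas, 112 to 128 FPKM in controls with GCV and 353 to 1028 FPKM in IOP retinas with GCV. Of them 9 were called higher and 1, Siglech, lower in the averaged comparison, against 6.76% and 5.44% of all genes. For 13 markers of infiltrating leukocytes the sums were 9.47 to 47.1, 323 to 737, 11.8 to 36.5 and 176 to 2500 FPKM in the same order, and 6 were called higher, against the same 6.76%. Ms4a1 and Cd79a, markers of B cells, were at 0 in the 3 controls without GCV, as were Ly6c2, Ngp, Camp and Cd3e in the controls with GCV and Camp in IOP retinas without GCV.

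Mouse by mouse, the microglial sum rose by 2.66, 1.62, 2.85, 2.15, 3.00 and 2.35 on the log2 scale in mice 1 to 6. The leukocyte sum rose by 5.50, 3.73, 5.53, 4.95, 6.06 and 3.94. Sums are carried by the most abundant markers. The median change over the 12 microglial markers on the log2(FPKM + 1) scale was 1.85, 1.06, 1.71, 1.83, 2.36 and 0.89 in mice 1 to 6, and that over the 13 leukocyte markers 0.26, 0.42, 1.71, 0.20, 1.77 and 0.37. Mouse 5, with the largest median change of the members, was highest by sum and by median for both lists. The lowest was mouse 2 by sum, but mouse 6 by the microglial median and mouse 4 by the leukocyte median. Set against the microglial sum without GCV, 4 of the 10 members were lower in every IOP retina than in every control, 1 was higher and 5 overlapped. Of all 18509 genes divided by the same sum, 76.1% were lower in every IOP retina and 1.18% were higher. Per 100 FPKM of that sum, Myd88 went from 4.06 to 4.42 FPKM in controls to 0.810 to 2.56 FPKM in IOP retinas, and Tlr3, Tlr4 and Cd14 were lower too. Tlr1, the 1 member that was higher, was 0.0952 to 0.137 FPKM per 100 in controls and 0.148 to 0.308 in IOP retinas. With GCV, Tlr3 and Myd88 were lower, Tlr13 was higher and the other 7 overlapped, against 75.3% of all genes lower and 1.47% higher. The part of these cells in the change of the members was not tested.

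**Figure D4:**
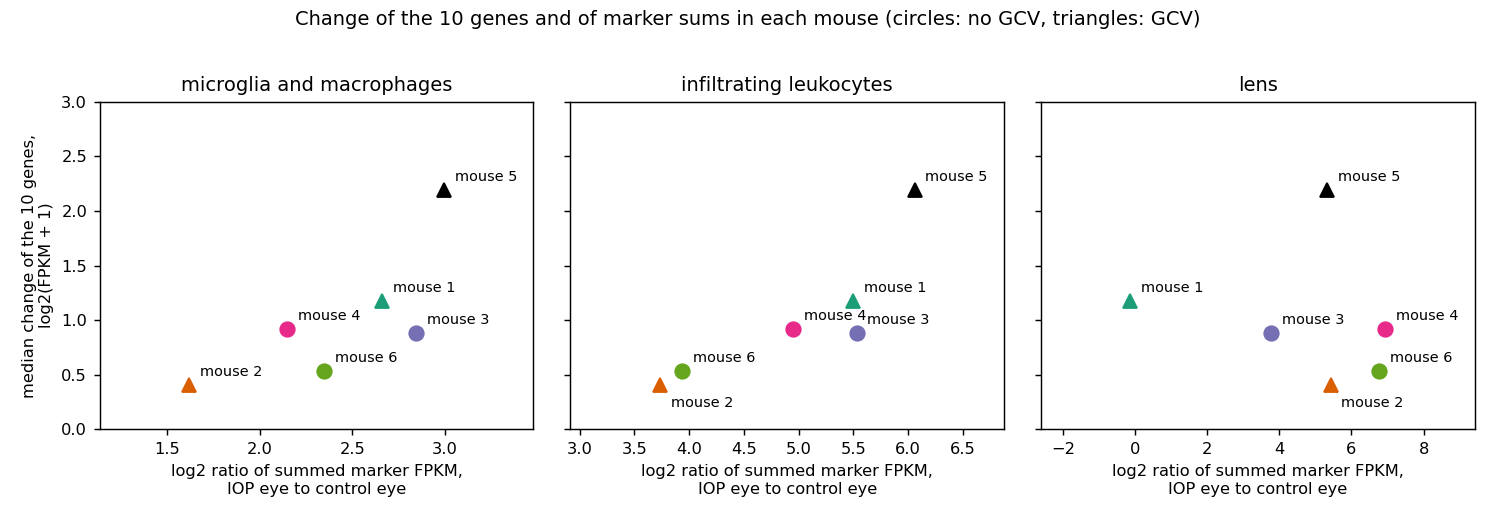
Median change of the 10 genes within each mouse in log2(FPKM + 1) (y axis) against the log2 ratio of summed marker levels in the IOP eye to those in the control eye (x axis) for 3 marker lists, with circles for mice without GCV and triangles for mice with GCV. Mouse 5 is highest and mouse 2 lowest on both axes for these sums of microglia and leukocytes, an order that the median marker change shares for mouse 5 but not for mouse 2, and the lens point of mouse 1 lies at -0.13.

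Lens genes also moved with IOP. The sum of 9 lens markers was 5.93 to 37.1 FPKM in controls and 94.1 to 4674 FPKM in IOP retinas without GCV, and 69.1 to 6529 and 3000.4 to 5963 FPKM with GCV. In the averaged comparison 5 of the 9 were called higher, against 6.76% of all genes. In mouse 1 the control eye had the highest lens sum of all libraries and the log2 ratio of the sums was -0.13, while the median lens marker was higher in the IOP eye by 0.73. In mouse 3, whose IOP eye had the lowest lens sum of the IOP retinas, the ratio was 3.78 and the median 1.38. The part of lens tissue in the values of the members was not tested. Markers of retinal ganglion cells, the neurons lost in glaucoma, were called lower in the averaged comparison for 7 of 8 genes, against 5.44% of all genes, with sums of 847 to 1080 FPKM in controls and 209 to 927 FPKM in IOP retinas without GCV, the highest being mouse 4, and 1065 to 1712 and 312 to 681 FPKM with GCV. The sum of 6 Mueller glia markers was lower in the IOP eye of all 6 mice, by a log2 ratio of -0.57 (mouse 1) to -1.58 (mouse 5). It was 1285 to 1430 FPKM in controls and 630 to 889 FPKM in IOP retinas without GCV, 1561 to 1677 and 525 to 1126 FPKM with GCV, and Rlbp1 and Glul were called lower in the averaged comparison. No rod marker was called, and their sums of 30185 to 55784 FPKM mark the tissue as retina. Among markers of retinal pigment epithelium, blood and endothelium, Emcn alone was called (0.58, adjusted p = 0.0440, limma). The pigment epithelium sum changed by a log2 ratio of -2.37 (mouse 1) to 1.68 (mouse 5). The blood sum changed by -1.69 (mouse 1) to 1.77 (mouse 3), and the endothelial sum by -0.02 (mouse 6) to 0.88 (mouse 4).

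As a description, the genes whose log2(FPKM + 1) ran most closely with each member over the 12 libraries were sought among 12908 genes. Control and IOP libraries form separate groups for most members, so these Pearson coefficients reflect that separation and are given without a test. Tlr7 ran with Cybb (0.99), the phagocyte oxidase subunit, and with Xdh and Chil3. Tlr13 ran with Casp8 (0.99), Slc15a3, an endosomal transporter, and Msr1, a macrophage scavenger receptor. Tlr1 ran with Lpxn (0.99), Csf3r and Clec4a3. Tlr2 and Tlr9 shared Birc3 (0.98 for both) and Apobec3, and the remaining gene was Chrdl1 for Tlr2 and Cfp, which encodes properdin, for Tlr9. Tlr4 and Tlr6 shared Aoah (0.98 for both), which degrades lipopolysaccharide, and Cd38, and the remaining gene was Ncf4 for Tlr4 and F10 for Tlr6. Myd88 ran with Igfbp3 (0.99), Tln1 and the RNA sensor Ifih1, Cd14 with Mmp14 (0.96), Mcemp1 and Ikbke, and Tlr3 with Polr3a (0.94), Ice1 and Agrn.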

How the data were processed

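Retinal RNA of 6 mice was sequenced as 12 libraries, strand-specific and paired-end with 50-base reads. Per the study's methods reads on RefSeq exons were counted with HOMER, while the submitters' processing notes name TopHat2, Bowtie2, Cufflinks, Cuffdiff and the build mm10. The authors deposited a table whose unit is not stated. Its values were read as FPKM made by the authors from the aligned reads, as deposited, by a step the sources do not describe, since the low values of a gene times its length are multiples of 1 number in a library (75.7% to 79.3% within 0.1 of whole numbers, over 170 bases subtracted from the length). From these steps the depth was estimated. No column was left unused.

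limma 3.58.1 (R 4.3.3) was fitted to log2(FPKM + 1) of all 12 libraries, with a mean for each of the 4 groups and a variance trend, and p-values were adjusted (Benjamini-Hochberg) over 18509 genes, with 0.05 as the threshold. The fit was tested on simulated data. Groups came from the sample titles. Same-numbered eyes are from the same mouse, so the mouse was used as a block in an alternative. The deviations of the eyes of a mouse from their group means correlated at -0.117 to 0.388 over 12908 genes. Differences are between retinas of 3 mice a group.

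The members, gene lists, tests and alternatives were chosen with earlier results of these data known. All 10 members are given. Of each pathway list, the 3 called genes with the largest averaged difference and at least 1 FPKM in a group are given with values, the other Tlr genes, and for each member the 3 genes with the highest Pearson coefficient. Levels of Tnfaip3, Irak3, Nfkbia, Saa3 and S100a8, the other called genes, the uncalled genes named and the marker lists were described after their values were seen. Positions are from RefSeq, GRCm38.p6, the same assembly as mm10. No position or sequence is given for Cd14. The value of 1 leukocyte marker is not reported here.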

Additional observations from a re-analysis of the deposited data

How the results depend on the processing

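No difference of a member changed sign in the alternatives run for the 3 IOP comparisons. The members called averaged over both treatments were 6 (12.2% of all genes called in either direction), and 7 with a pseudocount of 0.1 FPKM (12.6%), 6 with a filter of at least 1 FPKM in 3 libraries (which left 8 members, 19.7%), 6 with median-ratio scaling (12.5%), without the variance trend (12.4%) or with a weight per group (13.5%), 1 to 8 when 1 library was left out (4.51% to 24.5%), and 1 without mouse 6 (5.14%). With GCV the 1 member called (1.8% of all genes called in either direction) became 5 with a pseudocount of 0.1 FPKM (2.89%), 6 with a weight per group (7.98%), 0 with only the 2 groups compared (0.512%), 0 without mouse 5 (0.365%) and 0 to 8 when 1 library was left out (0.417% to 3.88%). Without GCV the 0 members (1.65% of all genes) became 3 with only the 2 groups compared (1.8%), 2 without mouse 5 (3.18%) and stayed 0 when 1 library was left out (0.125% to 13.5%). With the mouse as replicate block, the paired design, 4 members passed in the averaged comparison (7.3% of all genes, against 12.2%) and 0 with GCV (0.778%). Besides Tlr2, Tlr9 and Myd88 with GCV it changed no other call of a member. The comparisons of GCV gave 0 member calls in all alternatives, but some of their uncalled differences changed sign without the IOP retina of mouse 5. The causes of these shifts were not tested. The 2 fits without a mouse were added after seeing the data.

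Levels below 1 FPKM rest on few fragments, counts are estimates from the steps of low values, and a fold on the log2(FPKM + 1) scale understates the change of such genes.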
